A study of Mus musculus with 12 samples.

Results

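The genes described here are 10 members of the NF-κB system in mouse regulatory T cells (Tregs). They are the subunit genes Rel, Rela, Relb, Nfkb1 and Nfkb2, the inhibitor genes Nfkbia, Nfkbib and Nfkbie, the feedback gene Tnfaip3 and the nuclear IκB protein gene Bcl3. They were chosen by gene symbol from the 55228 symbols in the table of expression values, and the rule itself uses no measured value, although it was set with earlier results of these data known. Each symbol had a row. All 10 passed the filter on low values (a mean of at least 1 TPM, the abundance of a transcript relative to all transcripts of its library), as did 15043 genes in all.

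RNA was sequenced from 12 libraries, 3 in each of 4 groups of NOD.Foxp3-GFP mouse lymph node Tregs. EV no IL-2 and EV+IL-2 Tregs carried an empty retroviral vector with the Thy1.1 reporter, and EV+IL-2 Tregs alone stayed in medium with IL-2. By the study's methods the EV-transduced culture was divided, and the EV+IL-2 part was left in medium with mouse IL-2. In 1G12t and 3A10t Tregs the same vector also encoded a tethered ligand, the orthogonal IL-2 variant named 1G12 or 3A10 fused with an orthogonal IL-2 receptor β chain, and no IL-2 was added after the wash. The comparisons ask what soluble IL-2 and each tethered construct do to the Treg transcriptome. No group carried the orthogonal receptor chain without a ligand, so the ligand and the added receptor chain cannot be told apart. Cells of all groups were activated, transduced on day 2 and held in IL-2 until day 4, when it was washed away from all but EV+IL-2, and sorting for Thy1.1 followed on day 9, 5 days after the wash. The CD4+ cells of 16 mice formed 1 pool, and each of its 3 parts had a sort and an activation of its own, so libraries that share a number share 1 sort. A p-value here therefore measures the spread between cultures of 1 pool, not between animals, and the mice's age is not in the labels.

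NF-κB factors are dimers of Rel-family proteins that wait in the cytoplasm bound to IκB inhibitors. Signals from the antigen receptor with CD28 and from TNF family receptors activate the IκB kinase (IKK) complex, the IκB protein is degraded and the dimer moves to the nucleus, where it switches on target genes that include several of its own inhibitors. In Tregs, c-Rel is known for its part in the onset of Foxp3 expression and RelA for the maintenance of the effector Treg state.

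The κB site is the short DNA element that these dimers bind. It is shown because both inhibitors and subunits are known targets of the pathway they belong to. Promoter windows of RefSeq on GRCm38.p6, 250 bases before to 50 bases after each start, were searched on both strands for the 10-letter κB consensus, and 8 of the 10 genes, with 11 windows, had an entry. A match was found in 6 of the 8 genes (8 of 11 windows), against 4.51% of all 32851 windows and 5.14% of 27025 genes. Each line gives 30 bases on the gene's strand, 5′ to 3′, with the matched letters in capitals. Because the consensus is nearly its own reverse complement, 1 site can match on both strands, and overlapping matches are merged.
Rel, chr11:23771042-23771071, minus strand: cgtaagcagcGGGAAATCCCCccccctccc
Nfkb2, chr19:46304688-46304717, plus strand: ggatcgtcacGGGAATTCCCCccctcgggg
Nfkb2, chr19:46304716-46304745, plus strand: ggggccgaaaGGGGCTTTCCcggctggagc
Nfkbia, chr12:55492657-55492686, minus strand: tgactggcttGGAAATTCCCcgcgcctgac
Nfkbie, chr17:45555584-45555613, plus strand: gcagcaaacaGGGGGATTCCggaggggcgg
Tnfaip3, chr10:19015516-19015545, minus strand: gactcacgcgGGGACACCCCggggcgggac
Tnfaip3, chr10:19015403-19015432, minus strand: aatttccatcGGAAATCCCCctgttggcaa
Bcl3, chr7:19822734-19822763, minus strand: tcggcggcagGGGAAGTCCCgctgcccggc
In the GENCODE M21 annotation, the Rel, Nfkbia and Nfkbie matches lie 81, 20 and 100 bases upstream of the gene, the Nfkb2 and Bcl3 matches shown lie in untranslated exon sequence, and both Tnfaip3 matches lie in an intron. Nfkb2 had further matches in windows of its other starts. The windows of its starts 2 and 3 overlap and share 1 site, so the windows with a match are not all independent. No match was found in the windows of Rela and Nfkbib, and Nfkb1 and Relb had no entry. TTCNNNGAA, the element that STAT factors activated by IL-2 bind, is as a pattern its own reverse complement, so every match falls on both strands. It was found in 1 window of Nfkb2 and in no other of the 8 genes, against 8.3% of all windows and 9.55% of genes. A match describes the letters and was not tested as a binding site.

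**Figure D1:**
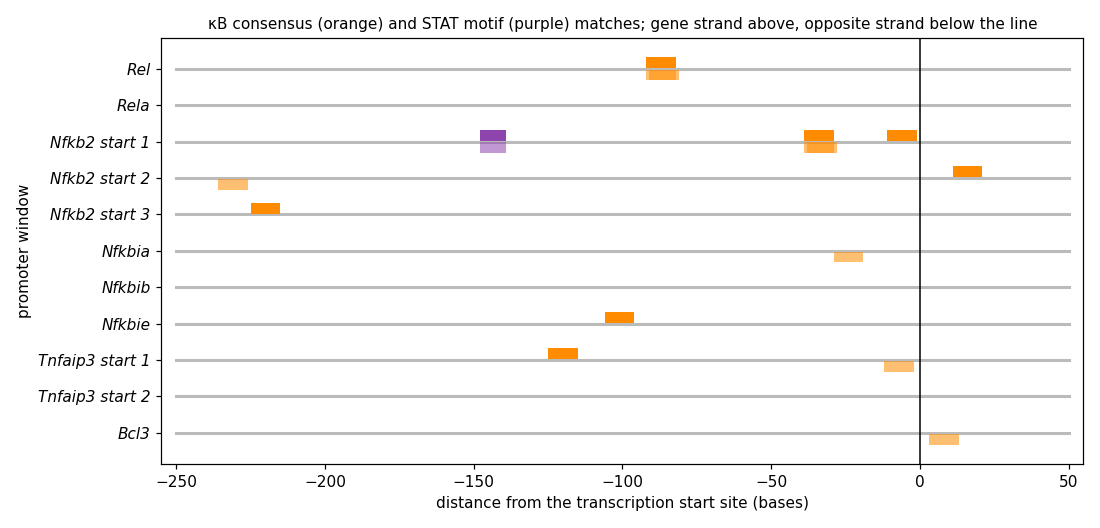
Positions of the κB consensus (orange) and the STAT element (purple) in the 11 promoter windows of 8 genes. The x axis is the distance from the annotated start in bases, and matches on the gene strand are drawn above the line and on the opposite strand below it. 8 of the 11 windows hold a κB match.

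The values below are scaled TPM, the deposited TPM divided by 1 factor per library (0.846 to 1.08). Fold changes are differences on the log2(scaled TPM + 1) scale, which understates changes of genes with low TPM, and were tested with limma over the 15043 genes with all 12 libraries in 1 fit. A gene was called at a Benjamini-Hochberg adjusted p under 0.05, and a second, looser threshold was that of the study, an unadjusted p under 0.01 with a log2 fold change beyond 0.25. TPM keep no record of reads, so the depth of the libraries is unknown and the spread between the 3 libraries is the error. Of the 12 libraries, 3A10t replicate 2 and 1G12t replicate 3 stood apart. The former held the highest of the 12 values for 24.5% of genes and the lowest for 21.4%, and the latter held the highest for 15.7% and the lowest for 12.5%. Among the members, 3A10t replicate 2 was lowest for Nfkb1, Nfkb2, Nfkbie, Rela and Tnfaip3 and highest for Nfkbib, while 1G12t replicate 3 was highest for Nfkb2, Nfkbia, Rel, Relb and Tnfaip3. The median SD of the members within a group, on the log2 scale, was 0.24 in 3A10t and 0.22 in 1G12t, wider than the 0.12 of EV no IL-2 and the 0.09 of EV+IL-2. For all genes it was 0.22, 0.15, 0.12 and 0.11 in the same order. Low-level signal also moved with the groups. Over 35176 genes with a mean above 0 and under 1 TPM, the mean was 0.0801 to 0.126 TPM per library in EV+IL-2, 0.176 to 0.277 TPM in EV no IL-2, 0.361 to 0.421 TPM in 1G12t and 0.304 to 0.379 TPM in 3A10t, and its part in the values of the members was not tested. All 6 Treg markers (Foxp3, Il2ra, Ctla4, Ikzf2, Cd4 and Cd3e) exceeded 1 TPM in every library, with Foxp3 between 373 and 515 TPM. Of 5 myeloid markers Cst3 lay between 444 and 770 TPM, and the other 4 had medians of at most 0.536 TPM, S100a8 being at 0 in 5 libraries. Of the B cell and CD8 T cell markers, Cd79b lay between 6.82 and 13.4 TPM, Cd79a had a median of 1.38 TPM, Ms4a1 stayed under 1 TPM, Cd8b1 lay between 3.14 and 5.79 TPM and Cd8a did not exceed 0.780 TPM. In bulk RNA, fewer cells of a type and less RNA per cell cannot be told apart.

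Averaged over the 12 libraries, the members spanned a wide range of levels. Nfkbia, which encodes IκBα, was the most abundant at 544 TPM, above 98.5% of genes tested. Rela (123 TPM), Nfkbib (94.2 TPM), Bcl3 (73.7 TPM) and Nfkb1 (66.7 TPM) followed, then Tnfaip3 (43.3 TPM), Nfkb2 (34.2 TPM), Nfkbie (28.6 TPM) and Relb (15.9 TPM). Rel was the least abundant at 9.98 TPM. The highest and lowest libraries differed most for Tnfaip3, by 3.40-fold, and for Nfkb1, by 2.12-fold, and least for Nfkbie and Rela, by 1.31-fold and 1.32-fold.

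Rel encodes c-Rel, a subunit with a transactivation domain, on chromosome 11 from 23736847 to 23770970 of GRCm38. Rel was at 9.79, 10.2 and 11.8 TPM in EV no IL-2 and at 7.26, 7.40 and 8.63 TPM in EV+IL-2. It was at 11.8, 13.2 and 13.8 TPM in 1G12t and at 10.1, 7.46 and 8.33 TPM in 3A10t. Every EV+IL-2 library was below every EV no IL-2 library, every 1G12t library was above every EV no IL-2 library by a narrow margin, and 3A10t overlapped both EV groups.

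Rela encodes p65, the main transactivating partner of p50 (chromosome 19, 5637483 to 5648130). It was at 136, 134 and 128 TPM in EV no IL-2, 123, 116 and 116 TPM in EV+IL-2, 123, 113 and 114 TPM in 1G12t and 121, 108 and 142 TPM in 3A10t. EV no IL-2 was above EV+IL-2 and 1G12t without overlap, and the 3A10t libraries alone held both the highest and the lowest of the 12 values. Relb encodes the partner of p52 in the alternative pathway (chromosome 7, 19606217 to 19629438) and ranged from 13.2 to 16.1 TPM in EV no IL-2, 13.3 to 15.6 TPM in EV+IL-2, 15.2 to 22.0 TPM in 1G12t and 16.1 to 17.6 TPM in 3A10t. The means of the EV groups, 14.4 and 14.5 TPM, were close.

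Nfkb1 and Nfkb2 encode the precursors p105 and p100, whose processing yields p50 and p52 and whose unprocessed forms also hold Rel proteins in the cytoplasm. Nfkb1 (chromosome 3, 135584655 to 135691547) was at 61.1, 51.3 and 51.7 TPM in EV no IL-2 and at 97.2, 72.3 and 81.8 TPM in EV+IL-2. It was at 75.3, 64.4 and 79.2 TPM in 1G12t and at 67.8, 45.9 and 52.7 TPM in 3A10t. All EV+IL-2 and all 1G12t libraries were above EV no IL-2, and these 2 groups overlapped each other. The 3A10t libraries surrounded those of EV no IL-2. Nfkb2 (chromosome 19, 46304320 to 46312385) was at 28.7, 31.1 and 31.6 TPM in EV no IL-2, 36.2, 35.0 and 35.4 TPM in EV+IL-2, 32.3, 30.9 and 44.4 TPM in 1G12t and 39.3, 27.8 and 37.3 TPM in 3A10t. Only EV+IL-2 stood clear of EV no IL-2, and its 3 libraries had an SD of 0.613 TPM, against 7.43 TPM in 1G12t. Genes on the opposite strand overlap Nfkb2, Nfkbib and Bcl3 and a gene on the same strand overlaps Nfkb1. Strand-specific counting is not stated, so reads from such partners cannot be told apart.

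The 3 IκB genes differed in level and in spread. Nfkbia (chromosome 12, 55489410 to 55492647) was at 537, 461 and 426 TPM in EV no IL-2, 518, 506 and 476 TPM in EV+IL-2, 458, 435 and 816 TPM in 1G12t and 511, 736 and 652 TPM in 3A10t. All 4 groups overlapped, with 1G12t replicate 3 and 3A10t replicate 2 at the top. Nfkbib, which encodes IκBβ (chromosome 7, 28758251 to 28767512), was at 101, 91.1 and 87.3 TPM in EV no IL-2 and at 85.7, 91.9 and 77.6 TPM in EV+IL-2. In 1G12t it was at 86.0, 81.6 and 84.0 TPM, and in 3A10t at 97.9, 142 and 104 TPM. Every 3A10t library was above every EV+IL-2 and 1G12t library, and 3A10t replicate 2 was the highest by far. Nfkbie, which encodes IκBε (chromosome 17, 45555703 to 45563169), was the steadiest of the 3, from 27.2 to 28.6 TPM in EV no IL-2, 25.5 to 28.9 TPM in EV+IL-2, 28.9 to 29.3 TPM in 1G12t and 25.0 to 32.9 TPM in 3A10t.

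Tnfaip3 encodes A20, a ubiquitin-editing enzyme that shuts off signaling to IKK (chromosome 10, 19000910 to 19015657). It was at 47.2, 49.3 and 51.1 TPM in EV no IL-2 and at 34.4, 32.8 and 29.9 TPM in EV+IL-2. It was at 49.2, 56.6 and 80.1 TPM in 1G12t and at 39.4, 23.6 and 25.3 TPM in 3A10t. EV+IL-2 and 3A10t were both below every library of EV no IL-2 and of 1G12t, and overlapped each other. Bcl3 encodes a nuclear IκB protein that binds p50 and p52 homodimers and acts as a co-regulator (chromosome 7, 19808462 to 19822770). It was at 63.3, 62.6 and 52.7 TPM in EV no IL-2 and at 92.3, 104 and 98.0 TPM in EV+IL-2. It was at 81.3, 53.4 and 58.3 TPM in 1G12t and at 65.0, 69.0 and 84.8 TPM in 3A10t. Every EV+IL-2 library was above all 9 others, and 3A10t lay between EV no IL-2 and EV+IL-2 without overlapping either.

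**Figure D2:**
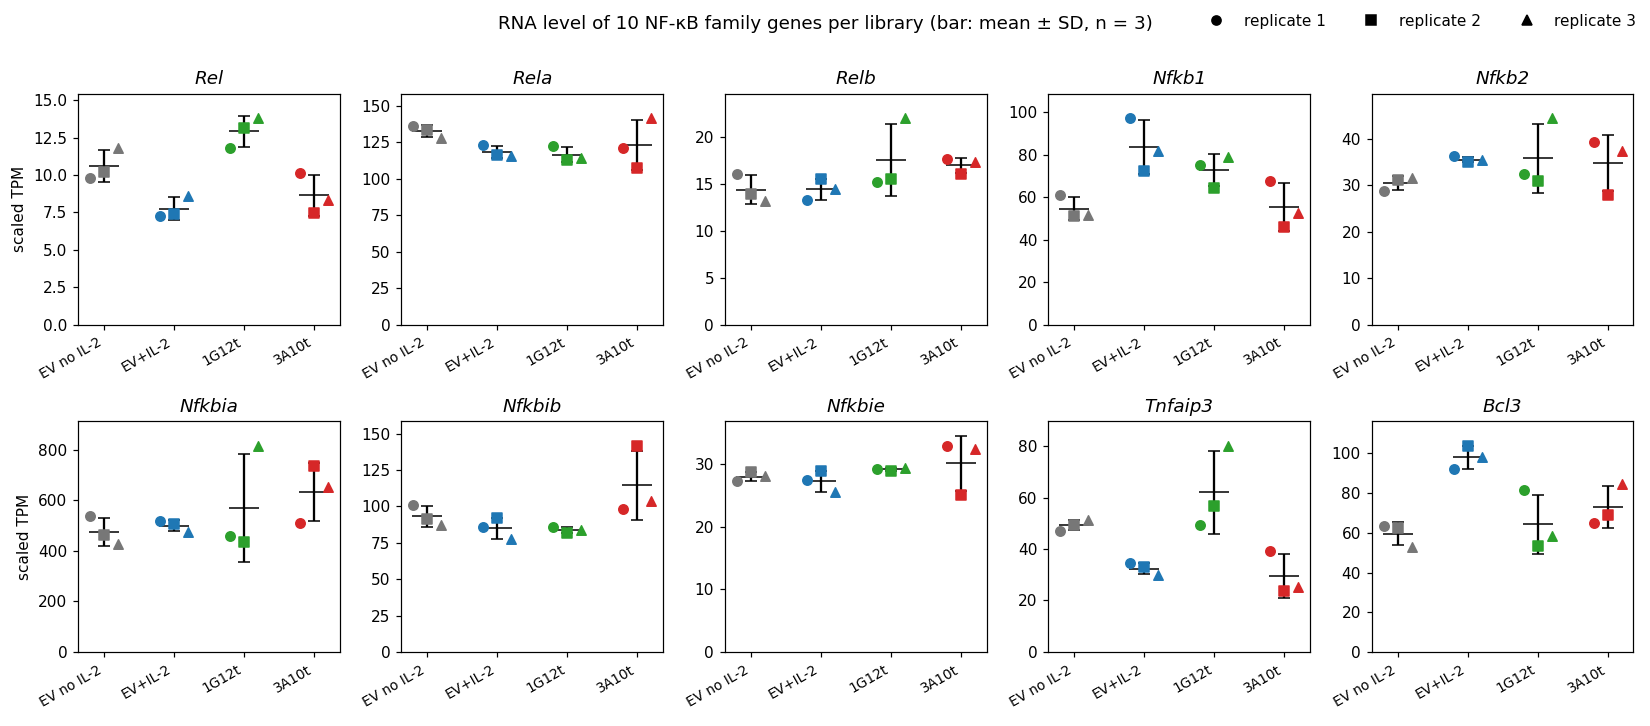
Scaled TPM (y axis, from 0) of the 10 genes in each of the 12 libraries, by group. Symbols mark the replicate number, and black bars give the mean ± SD of 3 libraries. Bcl3 is highest in EV+IL-2 (mean 98.1 TPM, against 59.5 TPM in EV no IL-2) and Tnfaip3 is lowest in 3A10t (mean 29.4 TPM) and EV+IL-2 (mean 32.4 TPM).

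With soluble IL-2, Bcl3 and Nfkb1 rose and Rel fell. Bcl3 went from 59.5 ± 5.89 to 98.1 ± 5.78 TPM (SD, n = 3), 0.71 on the log2 scale (limma standard error 0.16, adjusted p = 0.011). Nfkb1 went from 54.7 ± 5.53 to 83.8 ± 12.6 TPM, 0.60 on the log2 scale (limma standard error 0.15, adjusted p = 0.027). Rel went from 10.6 ± 1.06 to 7.76 ± 0.751 TPM, −0.40 on the log2 scale (limma standard error 0.12, adjusted p = 0.049). Thus 3 of 10 members were called in EV+IL-2 against EV no IL-2, beside 13.3% of all genes tested. The 2 higher members stand beside 8.17% of genes called higher and the 1 lower member beside 5.14% called lower. The groups did not overlap for 6 of 10 members, beside 39.6% of all genes.
Tnfaip3 had a log2 fold change of −0.59 (standard error 0.20) with no overlap between the groups, but an adjusted p of 0.079 in limma. Rela (log2 fold change −0.16, 95% interval −0.37 to 0.05) and Nfkb2 (0.22, −0.11 to 0.55) also did not overlap and were not called. For the IκB genes the intervals of the log2 fold change were −0.40 to 0.56 for Nfkbia, −0.42 to 0.15 for Nfkbib and −0.26 to 0.18 for Nfkbie, and for Relb the interval was −0.29 to 0.30. The median log2 fold change of the 10 members was −0.02, beside −0.01 for all genes.
The calls were not equally firm. Over 16 alternatives, Bcl3 kept its call in 15 (adjusted p 0.0065 to 0.055) and lost it without EV no IL-2 replicate 3 (adjusted p = 0.055, limma). Nfkb1 kept it in 10 of 16 (adjusted p 0.0039 to 0.11) and lost it when EV no IL-2 replicate 2 or 3 or EV+IL-2 replicate 1 or 3 was left out, with no filter on low TPM and with TPM as deposited. Rel kept it in 3 of 16 (adjusted p 0.020 to 0.18), and with the replicate block its adjusted p was 0.053 in limma. With 3A10t replicate 2 and 1G12t replicate 3 left out of the shared fit, 5 members were called, the same 3 with Tnfaip3 (log2 fold change −0.59, adjusted p = 0.022) and Nfkb2 (0.22, adjusted p = 0.031, limma). With only the 6 libraries compared, 5 members were also called, Bcl3 (adjusted p = 0.0065), Nfkb1 (0.033), Tnfaip3 (0.0045), Nfkb2 (0.03) and Rela (0.043, limma), while Rel was at 0.052. The summed level of the 6 Treg markers was 2244 to 2264 TPM in EV+IL-2 and 1858 to 1961 TPM in EV no IL-2. Most of that rise was Il2ra (mean 707 against 416 TPM), itself a listed target, with Ikzf2 (230 against 148 TPM), while Foxp3 was at 507 and 499 TPM, and Ctla4 (172 against 200 TPM) and Cd4 (250 against 301 TPM) were lower. The B cell marker Cd79b was at 9.15 to 11.8 TPM in EV+IL-2 and 7.12 to 8.74 TPM in EV no IL-2. The part of these markers in the differences was not tested.

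In 3A10t Tregs no member was called against EV no IL-2 (0 of 10 in limma, beside 2.05% of all genes), and 2 of 10, Tnfaip3 and Rel, had an unadjusted p under 0.05, beside 26% of all genes. Tnfaip3 was at 29.4 ± 8.67 TPM against 49.2 ± 2.00 TPM, a log2 fold change of −0.76 (standard error 0.20, 95% interval −1.20 to −0.32) with an adjusted p of 0.073 in limma. It alone met the study's threshold, beside 9.5% of all genes. The groups did not overlap for 2 of 10 members, Tnfaip3 (lower) and Bcl3 (higher), beside 25.4% of all genes. Bcl3 was at 72.9 ± 10.5 TPM, a log2 fold change of 0.28 (95% interval −0.06 to 0.63, adjusted p = 0.26, limma). Rel had a log2 fold change of −0.27 (adjusted p = 0.18), Nfkbib of 0.28 (adjusted p = 0.20) and Nfkbia of 0.41 (adjusted p = 0.25, limma). For Nfkb1, which rose with soluble IL-2, the value was 0.01 with an interval of −0.33 to 0.35.
Members were called only with 1 library left out, when the pathway genes called also went from 2 to 20. Without 3A10t replicate 1, Tnfaip3 had a log2 fold change of −0.98 (adjusted p = 0.0031, over alternatives 0.0031 to 0.26) and Rel of −0.38 (adjusted p = 0.039, over alternatives 0.039 to 0.49), so that 2 of 10 were called. No other alternative called a member. Among the 3A10t libraries, replicate 1 had the highest Tnfaip3, Rel and Nfkb1 values and the lowest Nfkbia and Nfkbib values. The summed level of the 5 myeloid markers, nearly all of it Cst3, was 545 to 772 TPM in 3A10t against 511 to 552 TPM in EV no IL-2, with overlap. Without overlap, Foxp3 was lower in 3A10t (373 to 468 against 495 to 506 TPM) and Cd79b was higher (9.00 to 13.4 against 7.12 to 8.74 TPM). The other Treg markers overlapped between the groups. In 3A10t the means of Ikzf2 (186 against 148 TPM) and Cd3e (365 against 359 TPM) were higher. Those of Il2ra (385 against 416 TPM), Ctla4 (186 against 200 TPM) and Cd4 (243 against 301 TPM) were lower. The part of these markers in the values was not tested.

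In 1G12t Tregs no member was called against EV no IL-2 (0 of 10 in limma, beside 0.0199% of all genes), under the main settings or any of the 16 alternatives. Rel (log2 fold change 0.27, standard error 0.12, adjusted p = 0.71) and Nfkb1 (0.41, standard error 0.15, adjusted p = 0.70, limma) had an unadjusted p under 0.05, as did 7.05% of all genes. The groups did not overlap for 5 of 10 members, with Rel, Nfkb1 and Nfkbie higher and Rela and Nfkbib lower, beside 16.5% of all genes. Of these, Nfkbie was at 29.1 ± 0.224 TPM against 28.0 ± 0.721 TPM, Rela at 117 ± 5.26 against 133 ± 3.96 TPM and Nfkbib at 83.9 ± 2.22 against 93.2 ± 7.17 TPM. The directions of Nfkbia and Bcl3 rested on single libraries. Without 1G12t replicate 3 the log2 fold change of Nfkbia went from 0.21 to −0.08, and without 1G12t replicate 1 that of Bcl3 went from 0.09 to −0.09. Tnfaip3, at 62.0 ± 16.1 TPM, had an interval of −0.14 to 0.74. Its log2 fold change kept its direction in all 16 alternatives, at 0.10 to 0.45. With 3A10t replicate 2 and 1G12t replicate 3 left out it was 0.11.

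**Figure D3:**
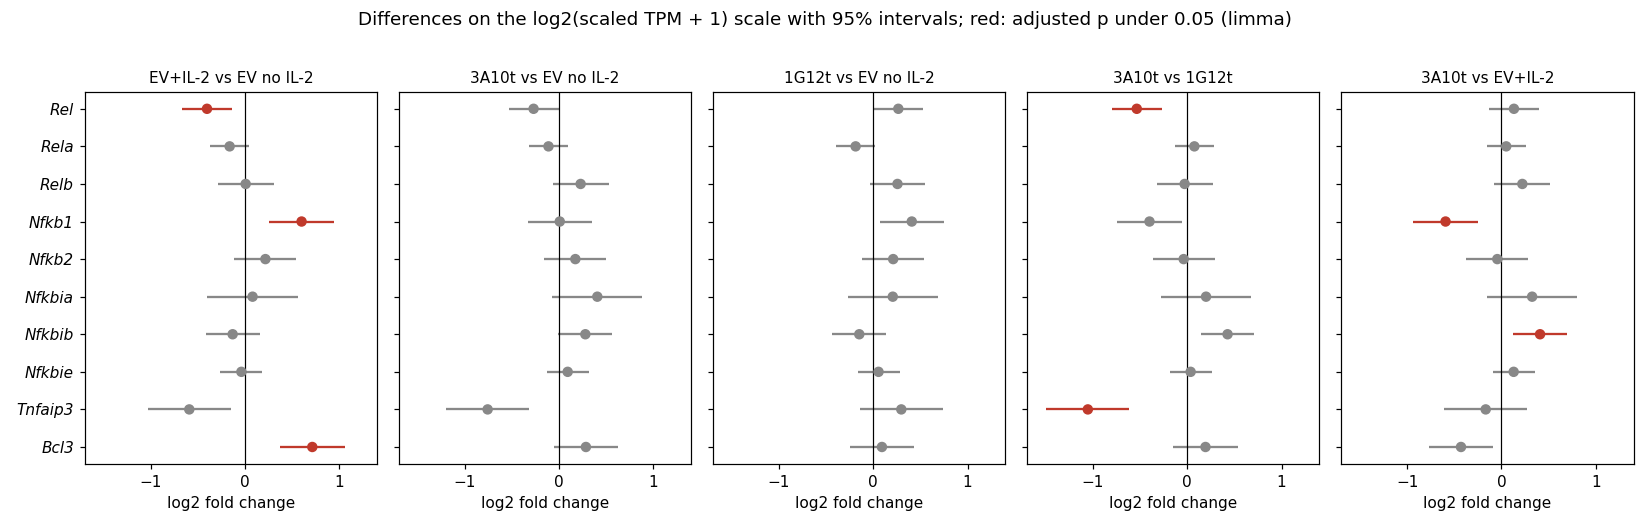
Log2 fold change (x axis, log2(scaled TPM + 1) scale) of the 10 genes in 5 comparisons, with 95% intervals from limma. Red marks an adjusted p under 0.05, which 3 members reached in EV+IL-2 against EV no IL-2, 2 in 3A10t against 1G12t and 2 in 3A10t against EV+IL-2.

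Set directly against 1G12t, 3A10t Tregs had less Tnfaip3 and less Rel. Tnfaip3 was at 29.4 ± 8.67 TPM in 3A10t and 62.0 ± 16.1 TPM in 1G12t, −1.06 on the log2 scale (limma standard error 0.20, adjusted p = 0.031). Rel was at 8.64 ± 1.36 and 12.9 ± 1.01 TPM, −0.54 on the log2 scale (limma standard error 0.12, adjusted p = 0.040). These 2 of 10 members stand beside 4.27% of all genes called, 2.96% lower. Nfkbib was at 115 ± 23.7 TPM in 3A10t and 83.9 ± 2.22 TPM in 1G12t, a log2 fold change of 0.43 that met the study's threshold (12.3% of all genes) but had an adjusted p of 0.071 in limma. These 3 were the members whose groups did not overlap, beside 26.2% of all genes. Nfkb1, at 55.5 ± 11.2 and 73.0 ± 7.68 TPM, had a log2 fold change of −0.40 with an adjusted p of 0.12, which became 0.046 with the replicate block (over alternatives 0.019 to 0.52, limma). No difference was detected for Rela, Relb, Nfkb2 or Nfkbie, whose log2 fold changes lay between −0.04 and 0.07. The calls depended on single libraries, both those that stood apart and others. With 3A10t replicate 2 and 1G12t replicate 3 left out, the log2 fold changes were −0.73 for Tnfaip3 (adjusted p = 0.14, over alternatives 0.00096 to 0.28) and −0.41 for Rel (adjusted p = 0.20, over alternatives 0.0038 to 0.28, limma), and 0 members were called. Without 1G12t replicate 2, which did not stand apart, the log2 fold changes were −1.10 for Tnfaip3 (adjusted p = 0.08) and −0.52 for Rel (adjusted p = 0.098, limma), so the calls were lost with little change in size. The count was also 0 without 1G12t replicate 3, 3A10t replicate 2 or 3A10t replicate 3, with no filter on low TPM and with only the 6 libraries compared, it was 1 without 1G12t replicate 1, and it was 4 without 3A10t replicate 1, where Nfkb1 and Nfkbib were added.

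Set against EV+IL-2, 3A10t Tregs had less Nfkb1 and more Nfkbib. Nfkb1 was at 55.5 ± 11.2 TPM in 3A10t and 83.8 ± 12.6 TPM in EV+IL-2, −0.59 on the log2 scale (limma standard error 0.15, adjusted p = 0.020). Nfkbib was at 115 ± 23.7 and 85.1 ± 7.14 TPM, 0.41 on the log2 scale (limma standard error 0.13, adjusted p = 0.043). These 2 of 10 members stand beside 23.4% of all genes (10.3% higher and 13% lower), so the share called among members was near the background. Bcl3 had a log2 fold change of −0.43 (adjusted p = 0.068, limma) and did not overlap between the groups, as was the case for 4 of 10 members (36.9% of all genes), the other being Relb (0.22, adjusted p = 0.26). Tnfaip3, low in both groups, differed by −0.17 with an interval of −0.61 to 0.27, and Rel by 0.13 with an interval of −0.13 to 0.40. Nfkb1 kept its call in 11 of 16 alternatives (adjusted p 0.0034 to 0.096) and Nfkbib in 8 of 16 (0.013 to 0.16). With 3A10t replicate 2 and 1G12t replicate 3 left out, neither was called, with adjusted p of 0.066 and 0.095 in limma, and Nfkbie was (log2 fold change 0.25, adjusted p = 0.034). No member was called in limma (0 of 10) when EV+IL-2 replicate 1 was left out, and Nfkb1 alone was called when EV+IL-2 replicate 2 or 3 was. Without 3A10t replicate 2 or 3 both calls were lost, and the 1 member called was Nfkbie (adjusted p = 0.037) and Bcl3 (adjusted p = 0.049, limma), respectively.

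**Figure D4:**
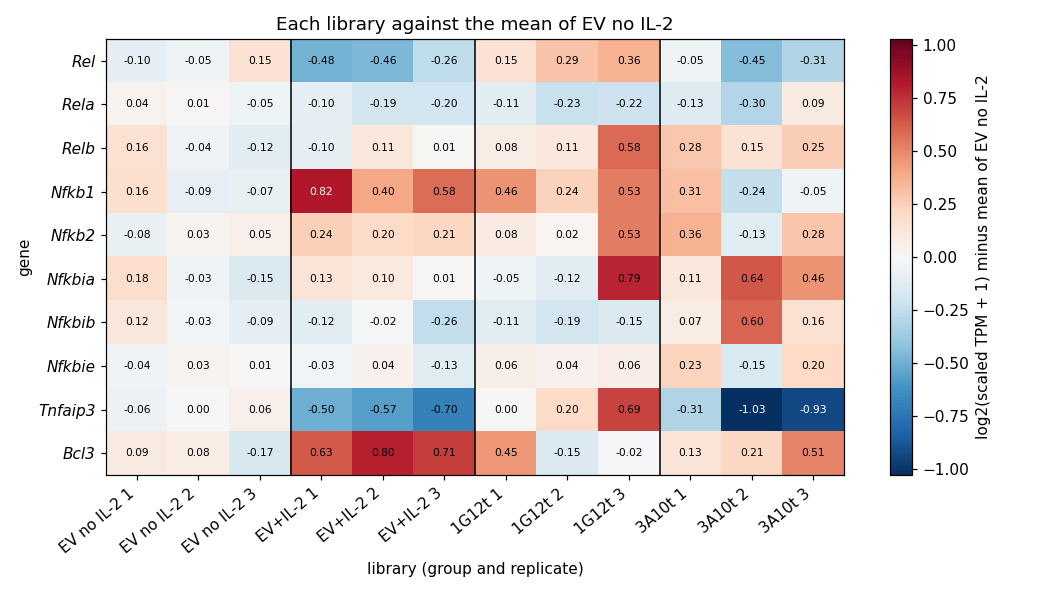
Difference of each library (x axis) from the mean of the 3 EV no IL-2 libraries for the 10 genes (y axis), in log2(scaled TPM + 1), with red for higher and blue for lower. Bcl3 is 0.63 to 0.80 higher in the EV+IL-2 libraries, and Tnfaip3 is 0.31, 1.03 and 0.93 lower in 3A10t replicates 1, 2 and 3, a wider range than in EV+IL-2.

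Other genes of the pathway were taken from 6 lists of 76 genes, of which 71 passed the filter on low values. Ltbr, Tlr4, Ccl22, Plau and Csf2 did not. In EV+IL-2 against EV no IL-2, 15 of the 71 were called (13.3% of all genes), 9 higher and 6 lower (8.17% and 5.14% of all genes). The genes of the IKK complex, the related and upstream kinases and the TAK1 adaptors together had 0 of 11 called in limma (1 with an unadjusted p under 0.05, beside 26.3% of all genes), with a median log2 fold change of −0.02. The adaptors and ubiquitin ligases likewise had 0 of 11 called (1 with an unadjusted p under 0.05). Of 5 genes of the antigen receptor arm, Cd28, the costimulatory receptor, fell from 155 ± 14.5 to 103 ± 1.90 TPM (log2 fold change −0.57, adjusted p = 0.0013, limma). Of 14 other IκB proteins and brakes, Commd1, which promotes turnover of RelA, rose from 63.3 ± 10.0 to 96.6 ± 7.78 TPM (log2 fold change 0.61, adjusted p = 0.018, limma).
Of 10 receptors tested, 3 rose and 1 fell, beside 8.17% of all genes called higher and 5.14% called lower. Tnfrsf9 (4-1BB) rose from 89.1 ± 3.51 to 172 ± 18.0 TPM, Tnfrsf18 (GITR) from 1777 ± 58.8 to 2814 ± 199 TPM and Il1rl1 (the IL-33 receptor) from 4.00 ± 0.486 to 11.2 ± 0.696 TPM, with adjusted p of 0.0026, 0.0055 and 0.0064 in limma. Cd27, a TNF receptor family costimulator, fell from 462 ± 4.77 to 299 ± 7.02 TPM (adjusted p = 0.0022, limma).
Of 21 known target genes tested, 5 rose and 4 fell, beside the same 8.17% and 5.14% of all genes. The median log2 fold change of the 21 was 0.12. The cytokine genes Lta (from 145 ± 7.22 to 527 ± 28.6 TPM, log2 fold change 1.86, adjusted p = 6.7e-06) and Tnf (from 33.9 ± 4.35 to 116 ± 5.26 TPM, 1.75, adjusted p = 0.00089, limma) rose. The survival genes Bcl2a1d (log2 fold change −1.41, adjusted p = 0.00015) and Bcl2a1b (−1.25, adjusted p = 4e-04, limma) fell. These are near-identical copies, so their separate values are uncertain. The listed targets thus moved in both directions while Nfkbia, itself a target, was at 500.0 ± 21.8 TPM against 475 ± 57.0 TPM.

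With the 3A10 tether and no IL-2, 2 of the 71 pathway genes differed from EV no IL-2 (2.05% of all genes, 1.6% lower), both lower. Traf6, the ubiquitin ligase downstream of the IL-1 receptor family, fell from 25.7 ± 2.56 to 14.8 ± 3.70 TPM (log2 fold change −0.78, adjusted p = 0.033), and Cyld, a deubiquitinase that restrains IKK, fell from 50.7 ± 5.73 to 30.5 ± 5.73 TPM (−0.72, adjusted p = 0.033, limma). Pathway genes called numbered 0 without replicate 2 or replicate 3 of either group, 1 without the first EV no IL-2 library, and 20 without 3A10t replicate 1. The 11 genes of the IKK complex and its kinases and adaptors had log2 fold changes from −1.31 (Map3k7, which encodes the upstream kinase TAK1) to −0.08 (Map3k14, which encodes NIK) with a median of −0.38, beside 0.03 for all genes. The subunits of the complex itself, Chuk, Ikbkb and Ikbkg, were at −0.55, −0.28 and −0.38. None of the 11 had an adjusted p under 0.05 in limma, 7 had an unadjusted p under 0.05, beside 26% of all genes, and 5 met the study's threshold as lower, beside 6.67% of all genes. For the 1G12 tether 0 of the 71 were called in limma (0.0199% of all genes) and 13 had an unadjusted p under 0.05, beside 7.05% of all genes.
Against 1G12t, 5 of the 71 were lower in 3A10t (4.27% of all genes called, 2.96% lower). They were Cyld (−0.61), Traf6 (−0.61), the IKK-related kinase gene Ikbke (−0.69), the TAK1 adaptor gene Tab2 (−0.69) and Zc3h12a, which encodes the RNase Regnase-1 (−0.70), with adjusted p between 0.040 and 0.047 in limma. Zc3h12a was near the filter of 1 TPM, at 1.25 ± 0.305 TPM in 3A10t and 2.66 ± 0.396 TPM in 1G12t. Leaving out 1 of the 6 libraries compared brought the count to 0 for 5 of them and to 21 for 3A10t replicate 1. Against EV+IL-2, 27 of the 71 were called (23.4% of all genes; 14 without EV+IL-2 replicate 1), 9 higher and 18 lower in 3A10t. Among them Lta had a log2 fold change of −1.50, Tnf of −1.52, Bcl2a1d of 1.65, Bcl2a1b of 1.46, Cd27 of 0.86 and Cd28 of 0.52.

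**Figure D5:**
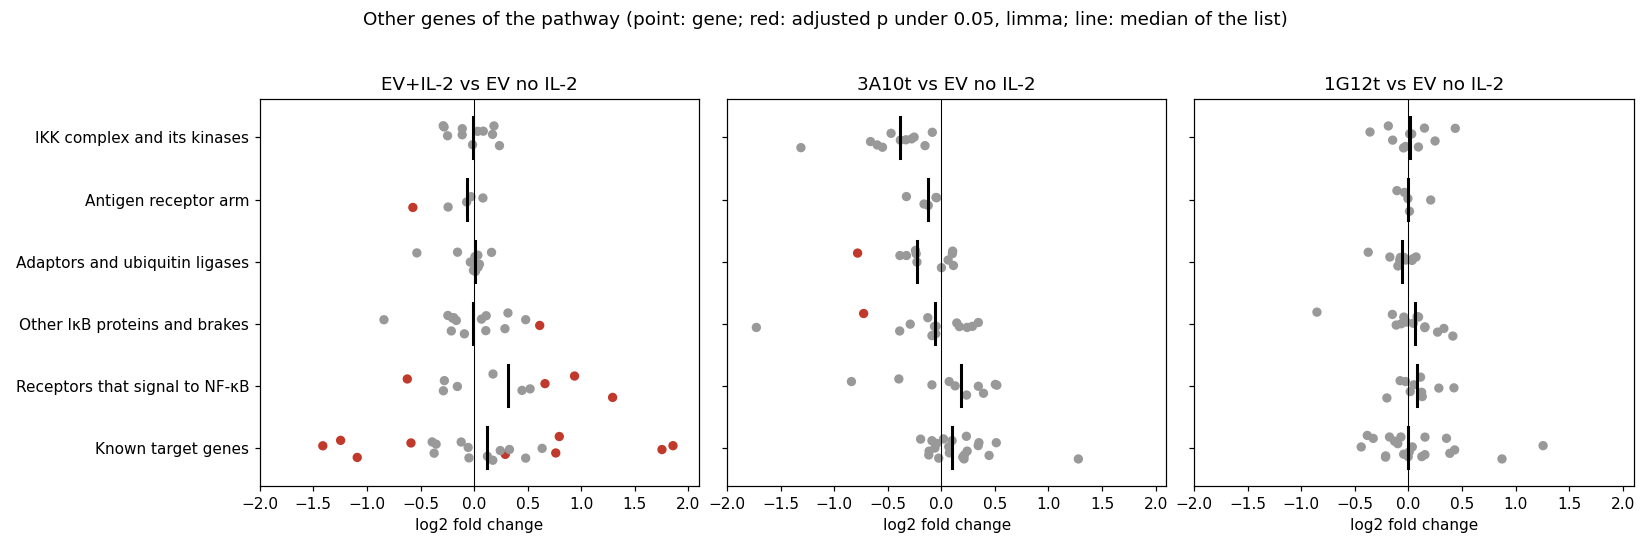
Log2 fold change (x axis, log2(scaled TPM + 1) scale) of the tested genes of 6 pathway lists (y axis) against EV no IL-2 in 3 groups. Each point is 1 gene, red marks an adjusted p under 0.05 in limma and the black line is the median of the list. The EV+IL-2 panel has 15 red points, the 3A10t panel 2 and the 1G12t panel 0.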

How the data were processed

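Bulk RNA-seq covered 12 Treg cultures in 4 groups of 3, assigned by the sample labels. The deposited values are TPM, 1 column per library. By the submitters' processing notes and the study's methods, the authors made the TPM by trimming with cutadapt 1.18, aligning to mm10 with STAR 2.5.3 and estimating expression with RSEM 1.3.0 and a GENCODE annotation of GRCm38, and ran DESeq2 1.26 on counts, which are not analysed here. TPM are relative to the library total, so a rise of a few abundant genes lowers the rest, and depth is unknown, so no counting interval is given.

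TPM were divided by median-of-ratios factors, and the 15043 genes at or above a mean TPM of 1 were tested with limma 3.58.1 in R 4.3.3 (lmFit and eBayes with a trend, pseudocount 1, all 12 libraries, no replicate block). The code was tested on simulated data. Positions came from GENCODE M21 on GRCm38, and figures were drawn with matplotlib 3.10.9 in Python 3.11.15. The members, the pathway and marker lists and the rule for named genes were chosen with earlier results of these data known. The rule names all 10 members, up to 4 called genes per list with the smallest adjusted p in EV+IL-2 against EV no IL-2, and every listed gene called in the 3 comparisons among 3A10t, 1G12t and EV no IL-2. Its last part names the 5 genes, at or above a mean TPM of 5, most like the member with the largest called change with IL-2. Alternatives were another pseudocount, filter, scaling, fit or prior, the replicate block, and each library left out. Leaving out the 2 libraries that stood apart was chosen after seeing the data. A listed marker gene is not reported here.

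The labels give libraries of the same number a shared sort. Over 18 pairs of libraries of the same number, deviations from the group means had a mean correlation of 0.041 (−0.11 to 0.15, 3 over 0.1), and over 36 pairs of different number −0.020.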

Additional observations from a re-analysis of the deposited data

How the results depend on the processing

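Over the alternatives, 701 of the members' log2 fold changes kept their direction and their side of the adjusted p, 50 fell short of it, 15 came to pass it and 34 changed sign. The rise of Bcl3 with soluble IL-2 was called in 15 of 16 alternatives, the most of any member. No member was called in 1G12t against EV no IL-2 in any alternative. With the replicate block, 2 members and 16 pathway genes were called with soluble IL-2, 0 and 3 in 3A10t and 0 and 0 in 1G12t (each against EV no IL-2), 3 and 5 between the tethers, and 2 and 27 between 3A10t and EV+IL-2. Beyond Rel in EV+IL-2 (adjusted p = 0.053) and Nfkb1 in 3A10t against 1G12t (adjusted p = 0.046, limma) it changed no other member's call. Over all genes tested, TPM as deposited moved the median log2 fold change from −0.02 to −0.18 in 3A10t against 1G12t and from 0.03 to −0.09 in 3A10t against EV no IL-2, and dropping the filter on low TPM moved it from 0.00 to 0.20 in 3A10t against EV+IL-2. Except where named, the cause of a change was not tested.

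In EV+IL-2 against EV no IL-2, 1 member was called with no filter on low TPM, 1 with TPM as deposited, and 5 with only the 6 libraries compared, where 24 pathway genes were called. With 3A10t replicate 2 and 1G12t replicate 3 left out the counts were 5 and 24. Leaving out 1 library gave 0 to 2 members. Relb was at −0.051 with TPM as deposited, −0.038 with quantile normalization and −0.054 to 0.084 with 1 library left out, Nfkbia at −0.086 with quantile normalization, and Nfkbie at −0.079 to 0.0094 with 1 library left out.

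In 3A10t against EV no IL-2, 0 pathway genes were called with no filter and 0 with only the 6 libraries compared, 1 with both libraries that stood apart left out, and 0 to 20 with 1 library left out, when 0 to 2 members were called. Nfkb1 was at −0.14 with TPM as deposited and −0.14 to 0.13 with 1 library left out, and Nfkbie at −0.053 with TPM as deposited. In 1G12t against EV no IL-2, Nfkbia was at −0.081 to 0.37 and Bcl3 at −0.085 to 0.21 with 1 library left out, and Nfkbia at −0.074 with both left out.

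In 3A10t against 1G12t, 0 members and 0 pathway genes were called with no filter, with only the 6 libraries compared and with both libraries left out. With TPM as deposited 10 pathway genes were called, with quantile normalization 1 member, and without the trend of eBayes 1 member and 1 pathway gene. Leaving out 1 library gave 0 to 4 members and 0 to 21 pathway genes. With TPM as deposited Rela was at −0.12 and Nfkbie at −0.15, and with quantile normalization Rela was at −0.027, Relb at 0.10, Nfkb2 at 0.018 and Nfkbia at −0.055. With both libraries left out Relb was at 0.16 and Nfkb2 at 0.26. With 1 library left out Rela was at −0.031 to 0.16, Relb at −0.12 to 0.14, Nfkb2 at −0.13 to 0.12 and Nfkbie at −0.030 to 0.15.

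In 3A10t against EV+IL-2, 0 members were called with only the 6 libraries compared, 1 without the trend and 1 with both libraries left out, and leaving out 1 library gave 0 to 2 members and 14 to 35 pathway genes. Rela was at −0.036 with TPM as deposited and −0.054 to 0.14 with 1 library left out. Nfkb2 was at 0.092 with quantile normalization, 0.10 with both left out and −0.13 to 0.10 with 1 library left out. With only the 6 libraries compared, few degrees of freedom are left for the spread.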

Other observations

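The 3 IκB genes together were at 2.23 to 2.64 times the summed TPM of the 5 subunit genes in 9 of the 12 libraries. The ratio was 3.40 in 1G12t replicate 3, 3.06 in 3A10t replicate 3 and 4.41 in 3A10t replicate 2. In 3A10t replicate 2 the subunit sum was the lowest of the 12, at 205 TPM, with an IκB sum of 903 TPM, whereas in 1G12t replicate 3 the subunit sum was 273 TPM and the IκB sum 929 TPM. The ratios of the other 1G12t libraries were 2.23 and 2.30, and that of 3A10t replicate 1 was 2.51. These ratios compare levels per length and were not tested.

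Bcl3 was the member with the largest called change with soluble IL-2. Among 10032 genes with a mean of at least 5 TPM, the genes whose log2(scaled TPM + 1) followed Bcl3 most closely over the 12 libraries were Pdss1 (Pearson r = 0.955), Fas (0.926), Mthfd2 (0.921), Rnaseh2b (0.920) and Prim2 (0.912). Pdss1 takes part in coenzyme Q synthesis, Fas is a death receptor, Mthfd2 is an enzyme of mitochondrial one-carbon metabolism, Rnaseh2b is a subunit of an RNase and Prim2 is a subunit of DNA primase. The 12 points share 4 groups, so the values are a description.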
